A study of Mus musculus with 14 samples.

Results

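The DNA methyltransferases Dnmt1, Dnmt3a, Dnmt3b and Dnmt3l and the methyl-CpG binding proteins Mbd1, Mbd2, Mbd3 and Mbd4 were followed in mouse fetuses after alcohol feeding of the mother. All probes whose only gene symbol in the platform annotation was 1 of these 8 names were taken, which gave 10 of the 21582 probes of the array: 2 each for Dnmt1 and Mbd2 and 1 for each of the other genes. All 10 had enough values for the test.

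RNA of C57Bl6 fetuses was measured on 14 two-colour arrays. The dams of the 7 alcohol-fed samples took ethanol on gestational days 15 to 18, at roughly 180 to 200 mg/dl, and the dams of the 7 pair-fed samples took maltose dextrin (maltose dextrose in some labels) on those days instead. The protocol gives 4 days of ethanol and the sample titles 5. Fetuses were delivered by caesarean section on gestational day 19. Each array set 1 sample, in Cy5, against the same Cy3 pool of total RNA from 7 animals with food and water ad libitum, called a weight-matched control in the labels. This pool is the untreated control, and the dams of both groups also ate ad libitum before the diets began. No source used here gives the tissue, the litter of a sample or any pooling of fetuses, so the p-values rest on the variation among these 7 and 7 samples, part or all of which may be technical.

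Cytosine methylation at CpG sites is written by 2 kinds of enzyme. Dnmt1 copies the methyl mark onto the new strand after DNA replication, whereas Dnmt3a and Dnmt3b place marks on unmethylated DNA and Dnmt3l, which has no catalytic activity, assists them, above all in germ cells. The marks are read by proteins with a methyl-CpG binding domain, several of which bring in histone deacetylases. Ethanol is known to disturb the folate and methionine cycle that supplies the methyl groups.

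The values are log2 ratios, centred on each array's median, so that 0 stands for the typical probe of that array. A positive value is taken to mean more RNA in the fetal sample than in the pool. No source states this direction; it is likely because the design text names the sample as the first channel, and every "higher" and "lower" below exchanges if it is the other way round. Deposited values of exactly 0 recur on every array and were treated as placeholders, meaning that no ratio was used. With the few values at the table's maximum they made up between 2.57% and 14.6% of an array. Before centring, and without placeholders, array medians ran from -0.62 to 0.68. Correlations between pairs of arrays across probes, which are no independent replicates, lay between 0.263 and 0.698. The tests treat the pool as a single control without spread of its own, and no array had its dyes swapped, so a dye effect and a difference from the reference cannot be told apart.

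Between the diets, none of the 10 probes differed by the test. limma called 0 of 10 (adjusted p 0.9996 for each), as it called 0 of all 20876 probes tested (0.0%). The exact permutation test also called 0 of 10, with a smallest adjusted p of 1.0 over all probes. Its smallest p over all probes, 0.000583, could pass the adjustment only if many probes reached it, so this 0 adds little to that of limma. One member, the Mbd2 probe NM_010773, had an unadjusted p under 0.05, a mark that 881 (4.22%) of all probes tested reached. The groups overlapped for all 10 members, while they did not overlap for 0.115% of probes. Of the 10 differences (alcohol-fed minus pair-fed), 6 were positive and 4 negative, with a median of 0.32 on the log2 scale against 0.01 over all probes. Against the reference, 3 calls were made: the Mbd2 probe AF072244 was lower in both groups and Mbd4 was lower in the pair-fed group. Of all probes tested, 15.5% were called lower in alcohol-fed and 13.5% in pair-fed fetuses. The Mbd2 probe NM_010773 was not called in either group, and both calls of AF072244 were lost when some single arrays were left out.

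**Figure D1:**
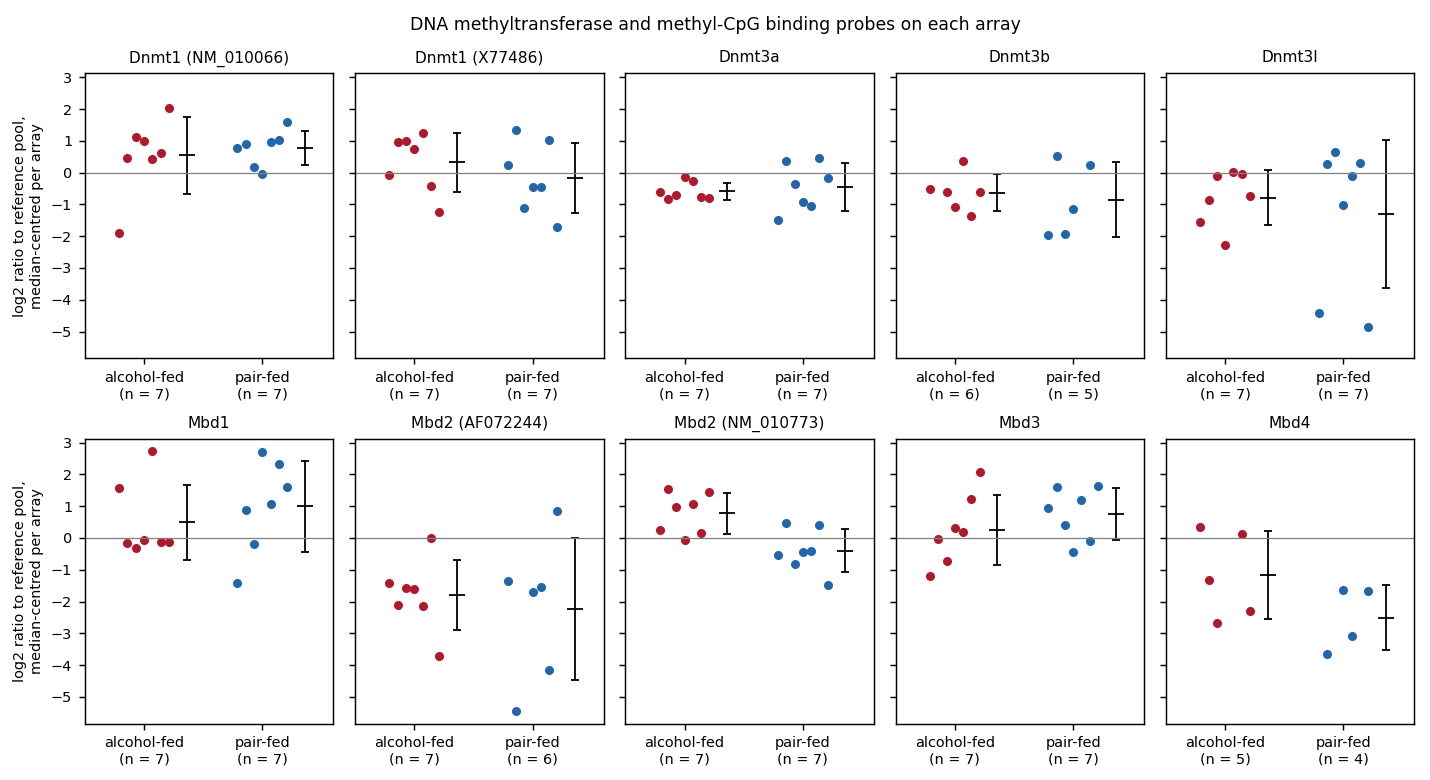
Median-centred log2 ratio to the reference pool for each member probe on each array (vertical axis), alcohol-fed left and pair-fed right; points stand in array order and the bar beside them is the mean with 1 SD. The groups overlap in every panel, and Dnmt3l, Mbd2 (AF072244) and Mbd4 hold the lowest single values.

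The 2 Dnmt1 probes gave unlike ratios. For probe NM_010066 the log2 ratios were -1.89, 0.47, 1.12, 1.00, 0.43, 0.63 and 2.04 on alcohol-fed arrays 1 to 7, against 0.78, 0.90, 0.18, -0.037, 0.97, 1.04 and 1.59 on pair-fed arrays 1 to 7. Thus 6 of 7 arrays of each group lay above 0, and alcohol-fed array 1 stood alone at the low end. The means were 0.54 ± 1.20 in alcohol-fed and 0.78 ± 0.55 in pair-fed fetuses (SD, n = 7 each), and their difference was -0.23 ± 0.50 (SE, limma). Neither mean passed the test against the reference (limma adjusted p 0.269 in alcohol-fed and 0.123 in pair-fed). Without alcohol-fed array 1 the alcohol-fed mean was 0.95 and passed (limma adjusted p 0.0341), and the difference between the groups changed sign, to 0.17.

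Probe X77486 of the same gene was spread around 0. It ran from -1.23 over a median of 0.73 to 1.26 in alcohol-fed fetuses, against -1.71, -0.45 and 1.33 in pair-fed fetuses, with 4 of 7 and 3 of 7 arrays above 0. Its means were 0.32 ± 0.92 in alcohol-fed and -0.16 ± 1.10 in pair-fed fetuses (SD, n = 7 each). The difference was 0.48 ± 0.53 (SE, limma), opposite in sign to that of the other probe. With arrays centred on their mean the pair-fed mean turned to 0.0076. On 5 of 14 arrays the probes stood on opposite sides of 0, and NM_010066 minus X77486 ran from -1.80 to 3.30 with a median of 0.34. The files do not say which part of the gene each probe reads.

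Dnmt1 is known to use different start sites in oocytes and in somatic cells, and RefSeq (GRCm38.p6) places 3 start windows at the gene, each of 300 bases from 250 before to 50 after a start. Those with the fewest and the most CpG are shown because the gene's ratios differed by probe. No source used here says which window serves oocytes or somatic cells, and none links either probe to a window. A part of start site use in the unlike ratios was not tested. Both windows lie on the minus strand and are printed 5′ to 3′. CG, the motif that the enzyme methylates and that reads the same on both strands, is in capitals.
Dnmt1 chr9:20959839-20960138 (- strand): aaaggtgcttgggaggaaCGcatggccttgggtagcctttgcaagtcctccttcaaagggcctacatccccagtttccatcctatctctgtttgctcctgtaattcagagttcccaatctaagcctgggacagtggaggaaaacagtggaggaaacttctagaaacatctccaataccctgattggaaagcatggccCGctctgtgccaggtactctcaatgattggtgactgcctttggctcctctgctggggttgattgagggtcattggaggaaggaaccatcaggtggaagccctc
Dnmt1 chr9:20952574-20952873 (- strand): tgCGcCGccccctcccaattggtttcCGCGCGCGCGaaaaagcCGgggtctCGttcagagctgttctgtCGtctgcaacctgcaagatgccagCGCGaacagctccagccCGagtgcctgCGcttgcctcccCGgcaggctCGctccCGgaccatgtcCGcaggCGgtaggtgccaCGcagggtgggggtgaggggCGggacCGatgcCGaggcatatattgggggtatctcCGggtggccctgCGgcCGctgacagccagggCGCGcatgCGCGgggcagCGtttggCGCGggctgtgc
The upper window holds 2 CpG and the lower holds 33, and the third holds 12. Of all 32851 windows of that length, 85.9% have at least 2 CpG and 8.56% have at least 33, with a median of 7.

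The means of the de novo enzymes lay below 0 in both groups without passing the test. Dnmt3a was below 0 on all 7 alcohol-fed arrays, from -0.82 over a median of -0.69 to -0.14, while pair-fed arrays ran from -1.48 over -0.37 to 0.47 with 5 of 7 below 0. Its means were -0.58 ± 0.27 in alcohol-fed and -0.45 ± 0.74 in pair-fed fetuses (SD, n = 7 each), with limma adjusted p of 0.119 and 0.234 against the reference. Before centring, Dnmt3a stood at 0.16 on alcohol-fed array 5. With arrays centred on their mean the alcohol-fed mean was -0.38 (limma adjusted p 0.279). The difference between the groups was -0.13, with a 95% interval from -0.93 to 0.67. Dnmt3a was the single member whose interval lay within a 2-fold difference in either direction, as did the intervals of 8.84% of all probes.

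Dnmt3b had no usable value on alcohol-fed array 2 and pair-fed arrays 5 and 7, and its fit used the other 11 arrays. The log2 ratio ran from -1.35 over a median of -0.61 to 0.36 in alcohol-fed fetuses (n = 6), against -1.96, 0.54, -1.92, -1.13 and 0.24 on pair-fed arrays 1, 2, 3, 4 and 6. Both groups lay mostly below 0, with 5 of 6 and 3 of 5 arrays. The difference was 0.22 ± 0.56 (SE, limma), and the means of -0.63 in alcohol-fed and -0.85 in pair-fed fetuses did not pass (limma adjusted p 0.228 and 0.151).

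Dnmt3l, the cofactor without activity of its own, showed the widest pair-fed spread of the family. Its log2 ratios were -1.56, -0.85, -0.11, -2.28, 0.030, -0.047 and -0.74 on alcohol-fed arrays 1 to 7, against -4.42, 0.27, 0.65, -1.02, -0.11, 0.30 and -4.85 on pair-fed arrays 1 to 7. Pair-fed arrays 1 and 7 stood far below the other 5. The SD was 0.87 in alcohol-fed and 2.33 in pair-fed fetuses, and the difference of the means, 0.52 ± 0.82 (SE, limma), changed sign without pair-fed array 7 (-0.073) or 1 (-0.001). The means against the reference were -0.79 in alcohol-fed and -1.31 in pair-fed fetuses (limma adjusted p 0.326 and 0.114).

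The spread within a group was narrower in alcohol-fed than in pair-fed fetuses for Dnmt3a, Dnmt3b and Dnmt3l. The ratio of SDs (alcohol-fed over pair-fed) was 0.36 for Dnmt3a, 0.497 for Dnmt3b and 0.37 for Dnmt3l, and 0.49 for the Mbd2 probe AF072244. A ratio under 0.5 was found for 4 of 10 member probes and for 13.1% of all probes tested, whose median ratio was 0.90. The spread was wider in alcohol-fed fetuses for Dnmt1 (NM_010066), at 2.20, where alcohol-fed array 1 lay apart, and for Mbd3 (1.37) and Mbd4 (1.35). The ratio was 0.82 for Mbd1, 0.83 for Dnmt1 (X77486) and 0.96 for Mbd2 (NM_010773). No test of spread was run.

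**Figure D2:**
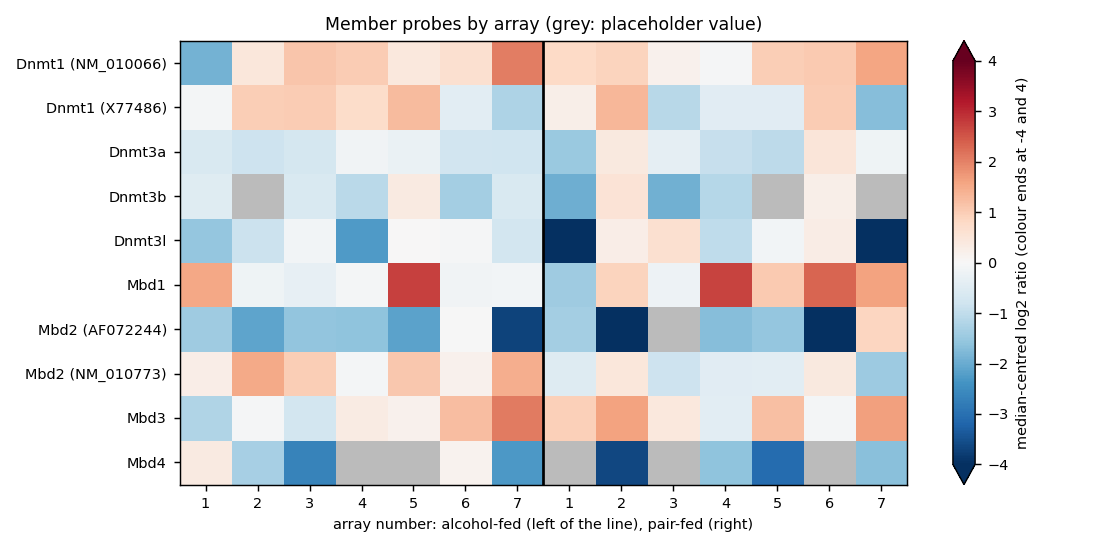
Median-centred log2 ratios (colour) of the 10 member probes (rows) on the 7 alcohol-fed arrays (left of the line) and the 7 pair-fed arrays (right); grey cells are placeholders. Single deep blue cells mark Dnmt3l on pair-fed arrays 1 and 7 and Mbd2 (AF072244) on pair-fed arrays 2 and 6.

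Among the readers, Mbd2, a methyl-CpG binding protein that recruits the NuRD deacetylase complex, gave unlike results from its 2 probes. Probe AF072244 had log2 ratios of -1.43, -2.10, -1.58, -1.61, -2.15, -0.012 and -3.71 on alcohol-fed arrays 1 to 7. On the 6 measured pair-fed arrays, 1, 2, 4, 5, 6 and 7, they were -1.36, -5.44, -1.71, -1.55, -4.16 and 0.86. It was therefore below 0 on 7 of 7 alcohol-fed and 5 of 6 pair-fed arrays, with pair-fed 2 and 6 the lowest. The mean was -1.80 ± 0.56 in alcohol-fed fetuses (SE), 3.48-fold below the reference (limma adjusted p 0.0298), and -2.23 ± 0.61 in pair-fed fetuses, 4.68-fold below (limma adjusted p 0.0164). Calls of this direction were made for 15.5% of all probes in alcohol-fed and 13.5% in pair-fed fetuses, so 1 and 2 such calls among 10 members are close to the share over the array. Since this is bulk RNA, fewer cells of a type and less RNA per cell cannot be told apart.

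Leaving out single arrays moved both Mbd2 calls over the threshold. The alcohol-fed adjusted p (limma) was 0.0533 to 0.0619 without alcohol-fed array 2, 3, 4 or 5, where the mean stayed between -1.83 and -1.74, and 0.0888 without array 7, where it was -1.48. The pair-fed adjusted p was 0.0595 without pair-fed array 2 (mean -1.58) and 0.0531 without array 6 (mean -1.84). Without pair-fed array 7, the 1 array above 0, the pair-fed mean was -2.84 (limma adjusted p 0.00300). Fitted alone, the pair-fed group gave an adjusted p of 0.0573. The difference between the groups at this probe was 0.43 ± 0.83 (SE, limma), and it turned to -0.21 without pair-fed array 2.

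The other Mbd2 probe, NM_010773, did not follow. It had log2 ratios of 0.26, 1.53, 0.99, -0.073, 1.08, 0.17 and 1.45 on alcohol-fed arrays 1 to 7, against -0.53, 0.47, -0.83, -0.45, -0.41, 0.40 and -1.47 on pair-fed arrays 1 to 7. Alcohol-fed arrays were above 0 in 6 of 7 cases and pair-fed arrays in 2 of 7, with the ranges overlapping between -0.073 and 0.47. The difference of 1.17 ± 0.41 (SE, limma), or 2.26-fold, had a 95% interval from 0.31 to 2.04. Its unadjusted p was 0.0103 with limma and 0.00699 in the two-sided exact permutation test over all splits of the 14 arrays, and after adjustment over all probes it was 0.9996 with limma and 1.0 with permutation. Of all probes tested, 6.94% had a difference of larger size. It stayed between 1.00 and 1.41 under all 26 alternatives run, including each array left out.

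Against the reference, probe NM_010773 had means of 0.77 ± 0.29 in alcohol-fed and -0.40 ± 0.29 in pair-fed fetuses (SE), and neither passed (limma adjusted p 0.0607 and 0.329). The alcohol-fed mean passed with quantile normalization, scale normalization, mean centring, array weights, without pair-fed array 7, or without array 6 of both groups (limma adjusted p 0.0124 to 0.0497). The 2 probes lay on opposite sides of 0 on 9 of the 13 arrays that measured both, and AF072244 was the lower on 12 of 13. AF072244 minus NM_010773 ran from -5.91 to 2.32 with a median of -1.69. On pair-fed array 7 the order was turned.

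**Figure D3:**
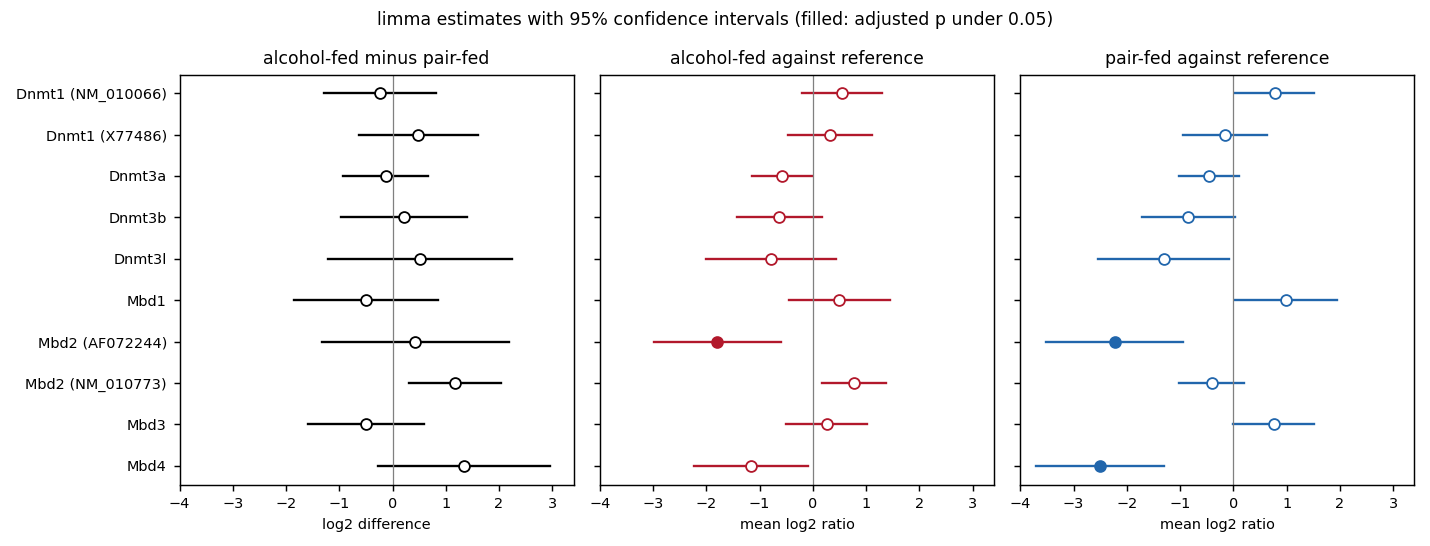
limma estimates (points) with 95% confidence intervals (lines) on the log2 scale for the 10 member probes: alcohol-fed minus pair-fed (left), and the mean of the alcohol-fed (middle) and pair-fed group (right) against the reference. Filled points passed at an adjusted p under 0.05: Mbd2 (AF072244) in both groups and Mbd4 in the pair-fed group.

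Mbd4, which removes the thymine or uracil that arises when a methylated or plain cytosine in CpG is deaminated, had the lowest pair-fed mean of the members where placeholders were left out. With placeholders kept at 0, Mbd2 (AF072244), at -1.93, lay below it. It had usable values on 9 of 14 arrays and placeholders on the other 5. The log2 ratios were 0.36, -1.33, -2.67, 0.13 and -2.30 on alcohol-fed arrays 1, 2, 3, 6 and 7, against -3.65, -1.62, -3.09 and -1.67 on pair-fed arrays 2, 4, 5 and 7. All 4 measured pair-fed arrays were below 0, and alcohol-fed arrays were split, with 3 below and 2 above. The pair-fed mean was -2.51 ± 0.56 (SE), 5.68-fold below the reference (limma adjusted p 0.00760), and the alcohol-fed mean was -1.16 ± 0.50 (limma adjusted p 0.105).

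That Mbd4 passed in the pair-fed group alone does not show that the groups differ. With array weights Mbd4 also passed in alcohol-fed fetuses (-1.48, limma adjusted p 0.0261). The difference, alcohol-fed minus pair-fed, was 1.34 ± 0.75 (SE, limma) with a 95% interval from -0.27 to 2.96 and an unadjusted limma p of 0.0953. With 4 pair-fed values, leaving out any of them drops the probe below the minimum of 4 arrays, so the call could not be checked in that way. With placeholders kept at 0 the pair-fed mean of Mbd4 was -1.48 (limma adjusted p 0.0347) and the difference between the groups was 0.56. With 1 alcohol-fed array left out that difference lay between 0.96 (without array 1) and 1.72 (without array 3).

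The promoter of Mbd4 is shown as that of the called member for which RefSeq (GRCm38.p6) gave a window, from 250 bases before to 50 after the start, printed 5′ to 3′ with CG in capitals.
Mbd4 chr6:115853292-115853591 (- strand): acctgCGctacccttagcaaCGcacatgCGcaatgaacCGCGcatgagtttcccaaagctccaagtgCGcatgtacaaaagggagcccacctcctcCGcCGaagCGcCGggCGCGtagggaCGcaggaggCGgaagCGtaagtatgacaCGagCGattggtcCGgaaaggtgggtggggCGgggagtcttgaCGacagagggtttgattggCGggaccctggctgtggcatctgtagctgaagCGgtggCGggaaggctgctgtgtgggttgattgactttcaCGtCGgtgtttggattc
It holds 25 CpG, a number that 18.4% of all windows reach. Windows were found for 6 of the 8 genes. Those of Dnmt3a held 46, 47 and 18 CpG, that of Dnmt3b 30, that of Mbd3 22 and those of Dnmt3l 6, 4 and 3.

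The means of Mbd1 and Mbd3 lay above 0 in both groups, without passing. Mbd1, a repressor that binds methylated CpG, ran from -0.33 over a median of -0.11 to 2.72 in alcohol-fed fetuses, against -1.42, 1.06 and 2.70 in pair-fed fetuses, with 2 of 7 and 5 of 7 arrays above 0. Alcohol-fed arrays 1 and 5 (1.56 and 2.72) stood above the other 5, which lay between -0.33 and -0.077. The means were 0.50 ± 0.45 in alcohol-fed and 0.99 ± 0.45 in pair-fed fetuses (SE, limma adjusted p 0.438 and 0.123), and the difference was -0.50 ± 0.64. Without pair-fed array 1 the pair-fed mean of Mbd1 was 1.40 and passed (limma adjusted p 0.0358).

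Mbd3, the NuRD subunit whose mammalian form has little preference for methylated CpG, ran from -1.20 over a median of 0.18 to 2.07 in alcohol-fed fetuses, against -0.43, 0.95 and 1.63 in pair-fed fetuses. Above 0 were 4 of 7 and 5 of 7 arrays. The means were 0.26 ± 0.36 in alcohol-fed and 0.76 ± 0.36 in pair-fed fetuses (SE, limma adjusted p 0.625 and 0.144), and the difference was -0.50 ± 0.51 (SE). Without alcohol-fed array 7 the alcohol-fed mean was -0.043.

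Placed in order of their mean, the alcohol-fed ratios ran from Mbd2 (AF072244), Mbd4, Dnmt3l, Dnmt3b and Dnmt3a below 0 to Mbd3, Dnmt1 (X77486), Mbd1, Dnmt1 (NM_010066) and Mbd2 (NM_010773) above it. In pair-fed fetuses the order was Mbd4, Mbd2 (AF072244), Dnmt3l, Dnmt3b, Dnmt3a, Mbd2 (NM_010773) and Dnmt1 (X77486) below 0, then Mbd3, Dnmt1 (NM_010066) and Mbd1. The 95% intervals of neighbours in these orders overlapped for all 18 pairs. These are ratios to the reference, not levels, and say nothing of which gene had more RNA.

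Both groups were set against 1 pool, so their values share that pool. Over the 10 members the median ratio was -0.16 in alcohol-fed and -0.43 in pair-fed fetuses, beside 0.01 and -0.03 over all probes tested. An unadjusted limma p under 0.05 was found for 4 members in alcohol-fed fetuses, 1 higher and 3 lower, and for 5 in pair-fed fetuses, 2 higher and 3 lower, where 38.5% and 36.1% of all probes had one. No member was called higher, a call made for 8.02% of all probes in alcohol-fed and 7.86% in pair-fed fetuses. Of all calls, 34.1% in alcohol-fed and 36.9% in pair-fed fetuses were higher, a split that turned to 56.5% and 55.2% with arrays centred on their mean, 44.2% and 47.5% with values as deposited, and 48.7% and 48.4% with quantile normalization. The two-sided exact test over all changes of sign, whose smallest p with 7 arrays is 0.0156, is void here as a check of the calls. That smallest p adjusted to 0.0802 in alcohol-fed and 0.119 in pair-fed fetuses, so no probe of the array could pass, and with the 4 pair-fed values of Mbd4 no p under 0.125 can be reached.

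**Figure D4:**
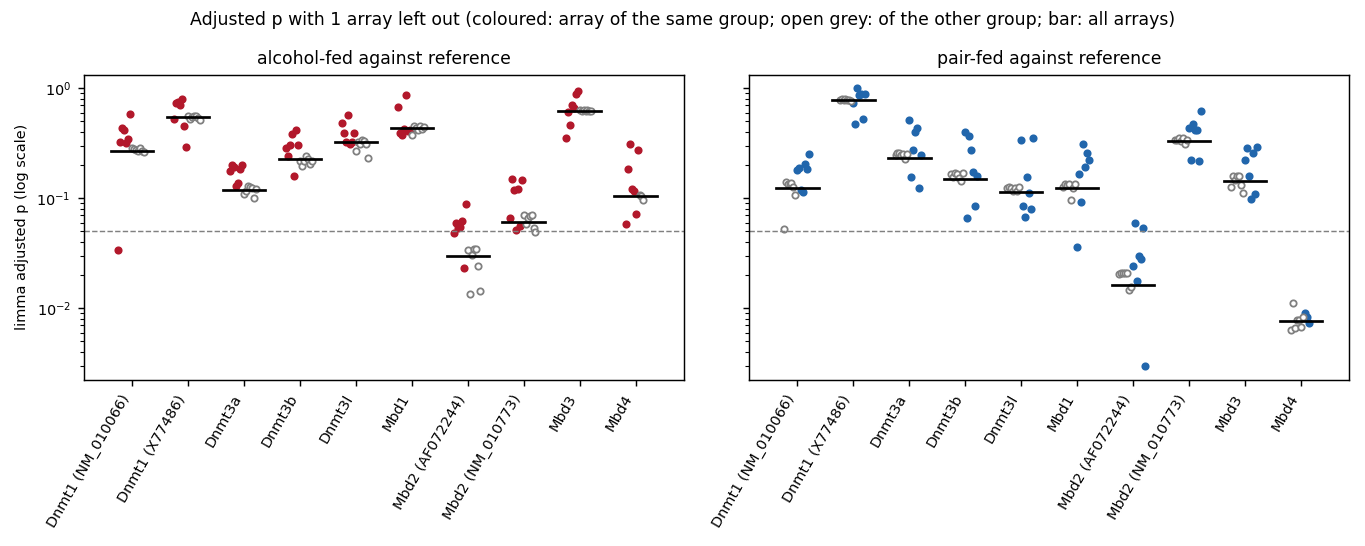
limma adjusted p (vertical, log scale) of each member probe against the reference with 1 array left out at a time, alcohol-fed group left and pair-fed group right: filled points leave out an array of that group, open points one of the other, bars are all arrays and the dashed line is 0.05. Mbd2 (AF072244) crosses the line in both panels, Dnmt1 (NM_010066), Mbd2 (NM_010773) and Mbd1 each dip under it once, and for Mbd4 in pair-fed fetuses no point leaves out an array that measured it in that group.

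The intervals of the differences between the diets were wide. Half-widths ran from 0.80 for Dnmt3a to 1.75 for Mbd2 (AF072244), with a median of 1.09 over all probes. A 4-fold difference lay outside the interval for 6 of 10 members, both Dnmt1 probes, Dnmt3a, Dnmt3b, Mbd1 and Mbd3, as for 76.8% of all probes. For Dnmt3l, Mbd4 and both Mbd2 probes the data do not exclude a difference of that size.

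Centred member ratios were also set against the median of the deposited array. Since centring subtracts that same median, the quantities are not independent, and r, above all a negative r, can arise from the subtraction. After adjustment 0 of the 10 relations passed, and the part of the array median in the differences was not tested. Over the 14 arrays the centred ratio of Dnmt1 (X77486) and the array median had Pearson's r = 0.654 and Spearman's rho = 0.582 (permutation p 0.0127 and 0.0304), and r was 0.440 without the 2 arrays whose medians lay farthest out. Adjusted over the 10 relations computed, the p-values were 0.127 and 0.304. Within alcohol-fed and pair-fed arrays r was 0.738 and 0.619. For Mbd4 r was -0.674 over 9 arrays (rho = -0.633, permutation p 0.0517 and 0.0769, adjusted 0.259 and 0.320), -0.735 without the 2 farthest arrays, and -0.732 and -0.864 within the groups, over only 5 and 4 arrays. For Mbd2 (NM_010773) it was 0.465 (rho = 0.411, permutation p 0.0942 and 0.146, adjusted 0.274 and 0.366), 0.253 without the 2 farthest arrays, and 0.647 and 0.604 within the groups. The other 7 probes had r between -0.467 and 0.352. Among the 14666 probes with values on all arrays the median size of r was 0.261.

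The named genes whose profile over the 14 arrays was most like that of a member were found by Pearson's r of centred ratios among 11468 named probes (11467 for Dnmt1). Mbd2 (NM_010773) was closest to S1pr2, a receptor for sphingosine phosphate (r = 0.921, rho = 0.864), and the homeobox gene Barx1 (r = 0.872, rho = 0.903). Dnmt1 (NM_010066) was closest to Clybl (r = 0.911, rho = 0.807), and Dnmt1 (X77486) to the adaptor gene Efs (r = 0.880, rho = 0.903). Dnmt3a had Saa3, a serum amyloid gene (r = 0.834, rho = 0.890), Mbd1 had the bromodomain gene Brd3 (r = 0.796, rho = 0.824) and Mbd3 had the transcription factor Sox12 (r = 0.876, rho = 0.868). Dnmt3l had Tnfrsf13c, a receptor of B cells (r = 0.831), with rho of 0.543 and r of 0.609 without the 2 farthest arrays, so this value rests in part on those arrays. These are the highest of many values over arrays that share 1 reference, and no p is given.

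The rest of the pathway was described by 5 lists, of which 59 genes were tested with 63 probes. Between the diets 0 of them were called. An unadjusted limma p under 0.05 was found for 3 of the 63 probes, close to the 4.22% of all probes tested. These were Pcna, the replication clamp that binds Dnmt1 (-1.34 ± 0.54), Sin3b of the Sin3 corepressor (1.16 ± 0.48, other probe 0.35) and Mta3 of NuRD (-1.06 ± 0.46), each as a log2 difference with its limma SE. The differences of Cbx3, a heterochromatin protein (0.93 ± 0.47), Shmt2 of the folate cycle (1.26 ± 0.81) and Zbtb4, another methyl-CpG reader (-0.71 ± 0.47), did not reach such a p.

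Counts of called genes below stand beside the shares of all probes called, 8.02% higher and 15.5% lower in alcohol-fed and 7.86% higher and 13.5% lower in pair-fed fetuses, and nothing particular to a list is read from them. A gene counts as called where any of its probes was, so the unit differs from that of the shares. Over the lists together, 5 probes were called higher and 5 lower in alcohol-fed fetuses, but 15 and 5 with arrays centred on their mean, 12 and 5 with quantile normalization, and 9 and 3 as deposited. In pair-fed fetuses 5 were higher and 4 lower, but 10 and 3 with mean centring, 8 and 3 with quantile normalization, and 5 and 3 as deposited. The numbers that rose therefore depend on the scaling.

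Of 17 genes of Dnmt partners and heterochromatin, 3 rose and 1 fell in alcohol-fed fetuses, and 2 rose and 1 fell in pair-fed fetuses. Hells, a chromatin remodeller needed for methylation of repeats, stood at -2.12 ± 0.42 in alcohol-fed and -1.26 ± 0.42 in pair-fed fetuses (log2 ratio ± SE, limma adjusted p 0.00190 and 0.0423), and its other probe at -0.65 and -0.12 did not pass. Zfp57, which protects imprinted marks, rose in both groups, with 0.94 in alcohol-fed and 0.98 in pair-fed fetuses (SE 0.30). Cbx3 (1.27) and the histone methyltransferase Ezh2 (0.98, just inside the threshold) passed in alcohol-fed fetuses, and the deubiquitinase Usp7 (0.79) in pair-fed fetuses. In the other group, without a call, Cbx3 stood at 0.34, Ezh2 at 0.53 and Usp7 at 0.46. The difference between the groups was not called for any of them. Uhrf1, which brings Dnmt1 to newly copied DNA, stood at 0.18 in alcohol-fed and -0.30 in pair-fed fetuses and was not called.

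Of 11 genes of NuRD and related corepressors, the partners of Mbd2 and Mbd3, 0 rose and 2 fell in alcohol-fed fetuses, and 2 rose and 1 fell in pair-fed fetuses. Mta1 fell in both, with -1.85 ± 0.56 in alcohol-fed and -2.20 ± 0.56 in pair-fed fetuses (limma adjusted p 0.0270 and 0.0122). Mta3 fell in alcohol-fed fetuses (-1.22 ± 0.33, limma adjusted p 0.0135) and stood at -0.16 in pair-fed fetuses. The deacetylases Hdac1 (1.70 ± 0.50) and Hdac2 (1.03 ± 0.35) rose in pair-fed fetuses and stood at 0.92 and 0.91 in alcohol-fed fetuses. Of 3 other methyl-CpG readers tested, Mbd6, Zbtb4 and Zbtb33, limma called 0 in either group, and 1 in each had an unadjusted p under 0.05: Mbd6 in alcohol-fed (0.77 ± 0.34) and Zbtb4 in pair-fed fetuses (0.90 ± 0.33). Such a p was found for 38.5% of all probes in alcohol-fed and 36.1% in pair-fed fetuses, so nothing particular to the readers is read from it.

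Of 9 genes of DNA demethylation and repair, 1 rose and 0 fell in each group. This was Tdg, which like Mbd4 removes thymine from mismatches with guanine, at 0.74 ± 0.25 in alcohol-fed and 0.72 ± 0.25 in pair-fed fetuses (limma adjusted p 0.0377 and 0.0460), above 0 on 7 of 7 arrays of both groups. Of 19 genes of one-carbon and methyl donor metabolism, 1 rose and 2 fell in alcohol-fed fetuses, and 0 rose and 2 fell in pair-fed fetuses. Cth, a lyase that makes cysteine from cystathionine, was the lowest, at -5.27 ± 0.29 in alcohol-fed and -5.22 ± 0.29 in pair-fed fetuses. Shmt1, which loads one-carbon units onto folate in the cytosol, fell in alcohol-fed fetuses (-1.65 ± 0.38), and its mitochondrial counterpart Shmt2 in pair-fed fetuses (-2.05 ± 0.57, n = 5). Mthfd2, a mitochondrial folate enzyme, rose in alcohol-fed fetuses (0.93 ± 0.28). In the other group, without a call, Shmt1 stood at -0.90, Shmt2 at -0.79 and Mthfd2 at 0.62. The difference between the groups was not called for any of these genes.

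List medians lay between -0.10 (one-carbon metabolism) and 0.60 (NuRD) in alcohol-fed fetuses, and between -0.25 (one-carbon metabolism) and 0.59 (other readers) in pair-fed fetuses, against -0.16 and -0.43 for the members. The lists were chosen with earlier results of these data known, and no test of a list was run.

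**Figure D5:**
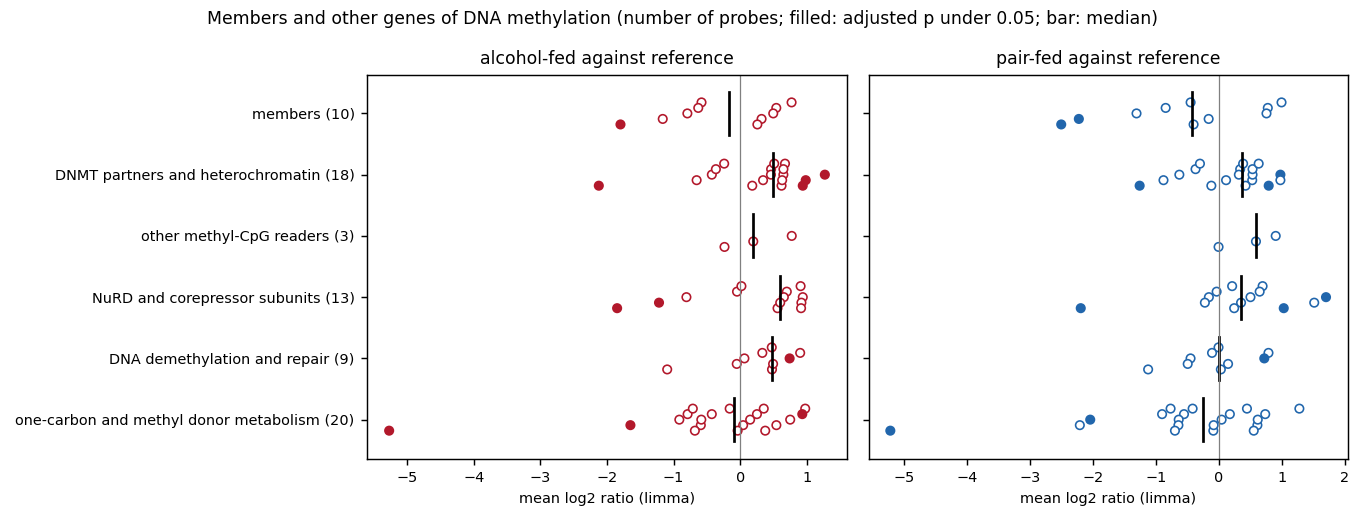
Mean log2 ratio to the reference (horizontal) of each probe of the members and of 5 pathway lists (rows, number of probes in brackets), in alcohol-fed (left) and pair-fed fetuses (right); filled points passed at an adjusted p under 0.05 and bars are medians. Cth, below -5 in both groups, is the farthest point of either panel.

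The labels name no tissue to check against markers, and ratios to a pool do not show whether a marker is present. Called genes are again given beside the shares of all probes called (8.02% higher and 15.5% lower in alcohol-fed, 7.86% and 13.5% in pair-fed fetuses). A gene counts as called where any of its probes was, so counts of genes with several probes are not like those shares. This holds above all for skeletal muscle, where 9 genes had 19 probes. Of 14 genes of proliferating cells, 2 rose and 1 fell in alcohol-fed fetuses, and 0 rose and 5 fell in pair-fed fetuses, with list medians of -0.27 and -0.19. Of 9 hepatocyte genes, 0 rose and 3 fell in alcohol-fed and 0 rose and 4 fell in pair-fed fetuses, and of 6 erythroid genes 0 rose and 2 fell in both groups. Of 9 neuronal genes, 0 rose and 1 fell in alcohol-fed fetuses, and 1 rose and 1 had probes called both ways in pair-fed fetuses. Of 9 skeletal muscle genes, 2 rose and 3 fell in alcohol-fed fetuses, and 2 rose and 2 fell in pair-fed fetuses, where 1 more had probes in both directions. Of 4 trophoblast genes, 2 rose and 1 fell in alcohol-fed and 1 rose and 0 fell in pair-fed fetuses. Medians in alcohol-fed and pair-fed fetuses were 0.14 and 0.44 for neurons, -0.04 and -1.14 for hepatocytes, -0.60 and -0.21 for erythroid cells, 0.45 and 0.36 for skeletal muscle and 0.71 and 0.59 for trophoblast, and limma called 0 markers between the groups. Between the groups, 4.22% of all probes had an unadjusted limma p under 0.05. In that order of lists, with proliferating cells first, 3 of 15, 0 of 10, 1 of 9, 1 of 7, 2 of 19 and 2 of 5 probes had one. No marker list was tested. The part of cell make-up in the members' ratios was not tested.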

How the data were processed

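The deposited table holds 1 log2 ratio per probe and array. No source states the log base: it was read from the deposited extremes of 16.61 and -9.966, which are the log2 of 100000 and 0.001. RNA was reverse-transcribed and labelled with a Genisphere 3DNA kit, per the labels' protocols. The scanner, any background correction and the normalization were not given in the sources used here, nor were signals, so which spots lay above background is unknown. Values of 0 or at the maximum were set to missing, arrays were median-centred, and probes with at least 4 values per group were tested (20876, while 706 were not). All 14 arrays entered 1 limma fit (limma 3.58.1, R 4.3.3, lmFit and eBayes, prior degrees of freedom 5.88, two-sided), adjusted by Benjamini-Hochberg over all probes tested at a threshold of 0.05. Group differences and each group's mean against 0 were its contrasts. Permutation tests used scipy 1.17.1, with 100000 resamples for correlations. Names come from the platform annotation, in which 16635 probes have 1 symbol, 113 several and 4834 none, and 15957 matched RefSeq (GRCm38.p6) by gene number. Any 2 arrays shared at most 0.287% identical values, so none is a copy of another. Each was entered as 1 replicate, but this check does not show that the samples are independent. The number of arrays limits the precision.

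All probes of the 8 genes are named. Of each pathway list, up to 4 called probes a comparison with the smallest p may be named, or the 2 with the smallest p where none was called; Uhrf1 and the other group's values of named probes were chosen after their values were seen. Members and lists were chosen with earlier results of these data known. Alternatives were other centrings and normalizations, placeholders kept, stricter and looser minimums of values, array weights, robust eBayes, each group fitted alone, a replicate block, exact permutation, and each array left out.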

Additional observations from a re-analysis of the deposited data

Results flagged for a closer look

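The lowest alcohol-fed value of the Dnmt1 probe NM_010066, -1.888 on array 1, lay far from the other 6 by Dixon's criterion, which was applied to the 20 sets of member values by group. It was the 1 set of the 20 so marked, and chance marks about 1 set in 20. Without that array, the difference alcohol-fed minus pair-fed was 0.17 in place of -0.23, and the alcohol-fed mean against the reference was 0.95 (limma adjusted p 0.0341) in place of 0.54. The cause of the low value was not tested.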

How the results depend on the processing

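Between the diets, 0 members, 0 probes of the pathway lists and 0 probes in all were called under every refit run. Of the values of single member probes under the alternatives, 744 kept direction and side of the threshold, 11 lost a call, 9 gained one and 15 changed sign. Many of the 744 could hardly change, so the tally does not measure robustness. A group's mean against the reference keeps its value when an array of the other group is left out. Between the diets there was no call to lose. Against the reference, 1 member was called in alcohol-fed fetuses. That count was 2 with mean centring, quantile or scale normalization, or without array 6 of both groups (those with most placeholders, an alternative chosen after seeing the data), 3 with array weights, 0 where a value on all 14 arrays was asked for (a filter that both called probes fail), 0 with exact permutation, which no probe could pass in either group, and 0 to 2 with 1 array left out. In pair-fed fetuses 2 were called, against 0 with all 14 arrays asked for, 0 with exact permutation, 1 with the group fitted alone, and 0 (without pair-fed 2) to 3 (without pair-fed 1) with 1 array left out. Of the pathway lists, 10 probes were called in alcohol-fed fetuses, 20 with mean centring, 17 with quantile normalization and 6 (without alcohol-fed 4) to 13 (without pair-fed 7) with 1 array left out. In pair-fed fetuses 9 were called, 3 with the group fitted alone and 4 (without pair-fed 1 or 5) to 10 with 1 array left out. The cause was not tested. The median of all probes against the reference moved from 0.007 to 0.207 in alcohol-fed and from -0.031 to 0.143 in pair-fed fetuses with mean centring.

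Signs changed as follows. For Dnmt3a, alcohol-fed minus pair-fed was 0.026 with array weights and 0.052 without array 6 of both groups, and -0.3019 to 0.0238 with 1 array left out. For Dnmt3b it was -0.064 with placeholders kept and -0.0615 to 0.563 with 1 array left out. For Dnmt3l it was -0.0728 to 0.8437 and for Dnmt1 (NM_010066) -0.4831 to 0.1709 with 1 array left out. For Mbd2 (AF072244) it was -0.26 without array 6 of both groups and -0.2134 to 1.0456 with 1 array left out. Against the reference, Dnmt1 (X77486) in pair-fed fetuses was 0.0076 with mean centring and -0.4131 to 0.0934 with 1 array left out, and Mbd3 in alcohol-fed fetuses was -0.0431 to 0.5012 with 1 array left out. The cause was not tested.

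The groups' replicate numbers gave no clear sign of pairing: same-numbered arrays had correlated deviations over 0.1 for 1 of 7 numbers, and only numbers 2 and 4 fitted their own number best. Weak correlations cannot show that the samples were not paired in the experiment. With the replicate block Mbd4's difference between the diets was 0.84 ± 1.02 (SE, limma) in place of 1.34. It rests on numbers 2 and 7 alone, which had a value in both groups. Alcohol-fed was the higher for number 2 (-1.33 against -3.65) and the lower for number 7 (-2.30 against -1.67). The calls with the block were 0 members between the diets, 1 in alcohol-fed and 2 in pair-fed fetuses, the counts of the fit without it. In all, 4922 and 4449 probes were called, against 4913 and 4450. Mbd4's pair-fed call could not be refitted without pair-fed 2, 4, 5 or 7, since 3 values remained. Array number limits precision, and signal over background is unknown.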
